A study of Mus musculus with 12 samples.

Results

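The 954 regions described here are stretches of mouse chromatin on chromosomes 1 to 19 that were called accessible in both libraries of Aire +/C313Y mice and in none of 6 wild-type libraries. They were found by merging all overlapping peaks of 12 ATAC-seq libraries into 222625 regions, of which the 954 are 0.429%. The members were thus chosen by the presence and absence of peaks in the 2 C313Y and 6 wild-type lists, and nothing is tested on those 8 lists with them. ATAC-seq records where a transposase can insert into chromatin. The libraries came from mature medullary thymic epithelial cells (mTEChi) sorted from C57BL/6 thymi at 4 to 7 weeks of age, with 2 libraries per group. The groups were Aire +/C313Y (replicates 2 and 3), Aire -/-, Aire +/C442G and 3 pairs of Aire +/+ wild types, 1 matched to each mutant by the form of the sample titles, which is an assumption. C313Y and C442G are amino acid changes carried on 1 of the 2 Aire alleles, so these mice keep a normal allele. The labels do not say whether libraries came from separate animals or from pools, nor how many founder lines were used, so the spread between libraries may be technical.

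AIRE is a nuclear protein that lets medullary thymic epithelial cells transcribe genes which are otherwise restricted to peripheral tissues, so that developing T cells can be screened against these antigens. It has PHD fingers, zinc-binding folds in which cysteines hold the metal, and dominant mutations in them are known in patients with autoimmunity. Accessible chromatin away from gene starts often marks enhancers, which act on genes at a distance. The nearest gene is therefore a position and not a target. In this text "closed" means that no peak was called. With no read counts in the lists, a closed region may hold signal below the peak caller's threshold.

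The lists held 33502 to 120031 peaks on these chromosomes. The C313Y heterozygotes had 74167 and 56173, against 71554 and 54613 in their own wild types, so within this set replicates differed more in peak number than genotypes did. Replicate 1 of the C313Y-set wild types stood apart by narrow peaks, with a median width of 124 bp against 151 bp in its partner. Without it 1445 regions met the rule, and without its partner 1298 did. Without replicate 1 or 2 of the C442G-set wild types 1366 and 1459 did, so the rise was not particular to the library with narrow peaks. Of 8 genes that mark mTEChi, 7 and 5 were open (a peak at most 1 kb from the gene's ends) in the C313Y heterozygotes, and 7 and 7 in their wild types. T cell markers were open at 5 and 3 of 14 genes in the heterozygotes, against 4 and 2 in their wild types, and endothelial markers at 1 and 1 of 8, against 2 and 0. For B cell markers the counts were 2 and 1 of 6 against 0 and 1, for dendritic cells and macrophages 5 and 5 of 10 against 5 and 5, and for fibroblasts and mural cells 2 and 3 of 7 against 4 and 3. Of all 20661 protein-coding genes 47.8% were open in all 6 wild types. In the wild types of the knockout set, whose lists were the shortest, 4 and 3 of the 8 mTEChi genes were open. The share of all genes open in each library is not given here, so these marker counts do not measure purity. The part of other cells in the gained regions was not tested.

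Among the members were 15 that reached into the 250 bases upstream of an annotated start of a protein-coding gene. In all 15 both heterozygote peaks covered some of these bases, 4 to 224. The same count over all merged regions is not given here. Members were not rich in gene starts: 3.79% lay within 1 kb of one, against 7.25% of all merged regions. The upstream sequences of 6 of the 15 are shown as examples. They were chosen after their values were seen, to include both members open in other mutants and members closed there. The sequences are the plus or minus strand of GRCm38.p6 as the gene reads, from RefSeq, and capitals mark the bases under the peaks of both C313Y heterozygotes.
Pdlim4 upstream, chr11:54069018-54069267, minus strand: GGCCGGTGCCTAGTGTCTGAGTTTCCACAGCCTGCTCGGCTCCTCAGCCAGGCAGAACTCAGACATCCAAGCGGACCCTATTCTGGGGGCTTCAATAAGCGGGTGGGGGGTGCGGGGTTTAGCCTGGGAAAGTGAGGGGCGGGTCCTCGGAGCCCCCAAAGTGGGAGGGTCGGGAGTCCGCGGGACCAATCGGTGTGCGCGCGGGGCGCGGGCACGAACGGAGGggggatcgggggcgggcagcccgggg
Serpinb2 upstream, chr1:107511260-107511509, plus strand: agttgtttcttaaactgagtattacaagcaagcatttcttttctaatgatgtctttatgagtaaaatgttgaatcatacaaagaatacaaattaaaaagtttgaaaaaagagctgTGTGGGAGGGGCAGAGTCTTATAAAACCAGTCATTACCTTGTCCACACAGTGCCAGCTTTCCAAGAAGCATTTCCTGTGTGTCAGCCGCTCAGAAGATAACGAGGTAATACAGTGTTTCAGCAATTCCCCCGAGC
Tlr6 upstream, chr5:64959167-64959416, minus strand: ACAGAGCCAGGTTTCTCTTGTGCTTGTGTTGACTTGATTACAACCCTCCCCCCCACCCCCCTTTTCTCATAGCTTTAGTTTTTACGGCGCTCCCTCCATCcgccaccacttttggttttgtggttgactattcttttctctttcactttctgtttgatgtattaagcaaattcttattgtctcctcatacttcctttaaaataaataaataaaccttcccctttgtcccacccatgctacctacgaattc
Slc17a7 upstream, chr7:45163671-45163920, plus strand: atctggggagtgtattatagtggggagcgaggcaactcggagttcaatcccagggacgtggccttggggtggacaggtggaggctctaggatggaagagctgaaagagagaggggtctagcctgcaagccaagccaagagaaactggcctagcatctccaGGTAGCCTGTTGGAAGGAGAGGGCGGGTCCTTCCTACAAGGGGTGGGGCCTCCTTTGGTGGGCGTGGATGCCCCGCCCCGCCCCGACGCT
Hspb9 upstream, chr11:100713679-100713928, plus strand: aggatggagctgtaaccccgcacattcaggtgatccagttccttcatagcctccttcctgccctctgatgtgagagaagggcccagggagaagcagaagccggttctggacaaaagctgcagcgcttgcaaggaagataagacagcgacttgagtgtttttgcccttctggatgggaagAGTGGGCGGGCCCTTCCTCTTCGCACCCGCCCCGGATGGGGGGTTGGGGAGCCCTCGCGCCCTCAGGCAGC
Muc1 upstream, chr3:89228806-89229055, plus strand: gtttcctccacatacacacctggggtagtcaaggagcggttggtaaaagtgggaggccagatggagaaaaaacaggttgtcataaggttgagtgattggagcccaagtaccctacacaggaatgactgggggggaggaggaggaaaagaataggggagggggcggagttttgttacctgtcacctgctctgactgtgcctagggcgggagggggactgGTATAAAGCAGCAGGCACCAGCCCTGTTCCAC

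Pdlim4, which encodes a PDZ and LIM domain protein of the actin cytoskeleton, had 224 of 250 upstream bases under both peaks. The stretch is rich in CG dinucleotides, with 21 of them, against a median of 10 over all 20084 promoter windows. Its member (chr11:54068970-54069300) was 257 and 285 bp wide in the 2 heterozygotes, and a weak peak in knockout replicate 1 was the only other call. At Serpinb2, an inhibitor of plasminogen activators that is induced in stressed epithelium and macrophages, 135 bases were covered and both a TATA box (TATAAA) and the AP-1 motif TGANTCA lay in the window. The Serpinb2 member (chr1:107511117-107511555) had peaks of 145 and 394 bp. It was also called in both knockout libraries, with the authors' fold enrichments of 3.83 and 3.83, and in 1 C442G library with 4.22.

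Tlr6, a receptor for bacterial lipoproteins, held one of the widest members (chr5:64959044-64959637, 336 and 321 bp), over an annotated start inside the gene. That region was closed in both knockout libraries and called in both C442G libraries, with folds of 4.22 and 3.19. Slc17a7, a vesicular glutamate transporter of neurons, had peaks of 117 and 259 bp across its start, and 1 knockout and 1 C442G library also had a call there. Hspb9, a small heat shock protein gene, was covered in all 6 mutant libraries. Its folds were 3.62 and 3.48 in the knockout and 4.24 and 4.52 in C442G. Muc1, a mucin of glandular epithelia, had peaks of 120 and 82 bp in the C313Y heterozygotes and no peak in the other 10 libraries. Its upstream window holds TATAAA next to the start.

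Motifs were read on both strands in the 250 bases upstream of each start, and these shares describe windows that held the letters, not bound sites. Over the 15 windows GGGCGG was present in 8 (43.4% of all windows), CAGGTG in 7 (17.2%), CCAAT in 3 (35.3%), and TATAAA (11.7%), TGANTCA (6.18%) and GGAAGT (20.5%) in 2 each. The median GC content was 60% in the 15 windows and 56% in all windows.

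By class of position the gained regions lay relative to genes much as all merged regions did, but a smaller share lay within 1 kb of a start. There were 71 of 954 (7.44%) at most 1 kb from the annotated ends of protein-coding genes (near gene ends), inside genes beyond that distance 446 (46.8%), and between genes 437 (45.8%). Over all merged regions these shares were 9.75%, 47.4% and 42.9%. Regions with a peak in both C313Y heterozygotes and in at least 1 wild type (44379) had 27.6% near gene ends. Under the same rule 3276 regions were knockout-gained (1.47% of all regions) and 9331 were C442G-gained (4.19%), with 4.61% and 4.19% near gene ends. Inside genes they had 54.3% and 54.8%. The mirror set described below, of regions called in the wild types of the C313Y set, had 6.77% near gene ends and 36.9% inside genes. No test is given because regions are not replicates and these sets were cut by the same wild types. Where starts were annotated, on 18 chromosomes, 35 of 924 members (3.79%) lay within 1 kb of a start: 13 across it, 10 upstream and 12 downstream. Of all merged regions there 7.25% did, and of regions called in both C313Y heterozygotes and a wild type 23.3%.

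**Figure D1:**
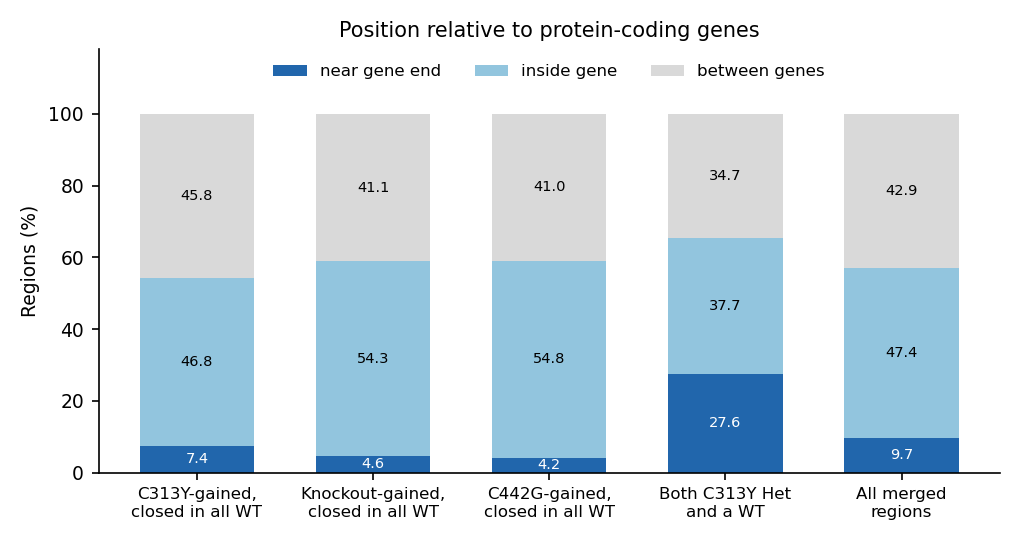
Stacked bars of the share of regions (percent, y axis) near a gene end (dark blue, at most 1 kb), inside a gene (light blue) and between genes (grey) for 5 sets of regions (x axis), with the C313Y-gained regions at the left. The C313Y-gained set has 7.44% near gene ends, against 27.6% of the regions called in both C313Y heterozygotes and a wild type and 9.75% of all merged regions.

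Between genes, the gained regions had a median distance of 30.5 kb to the nearest gene, against 33.6 kb for all merged regions between genes. Of all members 103 (10.8%) lay over 100 kb from any gene, against 11.8% of all merged regions. The nearest region with a wild-type peak was 2.96 kb away at the median. Of the members 228 (23.9%) had such a region within 1 kb, against 16.6% of knockout-gained and 19.5% of C442G-gained regions. For 476 members (49.9%) the nearest gene had a peak at a gene end in all 6 wild types, and for 199 (20.9%) in none. Over all merged regions these shares were 55.7% and 16.5%. The regions were spread over all 19 chromosomes, from 0.287% of regions on chromosome 16 to 0.548% on chromosome 4. The nearest to Aire itself (chromosome 10, 78030022 to 78043610) was at chr10:78088414-78088596, 44.8 kb beyond the gene. It lay 8889 bp from Icosl, which encodes a ligand that costimulates T cells. This region had peaks of 78 and 149 bp in the C313Y heterozygotes and was called in all 4 knockout and C442G libraries, with folds of 4.21 and 4.82 in the knockout and 4.36 and 3.98 in C442G.

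Peaks at the gained regions were narrow. Their median width was 111 bp in heterozygote replicate 2 and 100 bp in replicate 3, where other peaks of the same lists had medians of 154 and 150 bp. The width says how far the signal stayed above threshold, and these lists hold no other measure of strength. In the knockout and C442G lists narrow peaks were not particular to the members. There member peaks had median widths of 110 to 137.5 bp, and other regions closed in every wild type 89 to 103 bp. Regions called in both C313Y heterozygotes and a wild type had 208 to 287 bp. Like widths in the heterozygote lists are not given here. In 51 members both heterozygote peaks reached 200 bp and in 12 they reached 300 bp, where separate peaks of a library in the same region were summed. In 935 members the peaks of the 2 heterozygotes overlapped each other, and in 19 they were joined only through a peak of another library. Just outside the rule were 1774 regions with peaks in both heterozygotes and in exactly 1 wild type. That single wild type belonged to the C442G set in 409 and 498 cases, to the C313Y set in 496 and 346, and to the knockout set in 10 and 15. Just inside it were 31 members within 200 bp of a region with a wild-type peak. A further 12021 regions had a peak in 1 heterozygote and no wild type, 8318 of them in replicate 2.

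**Figure D2:**
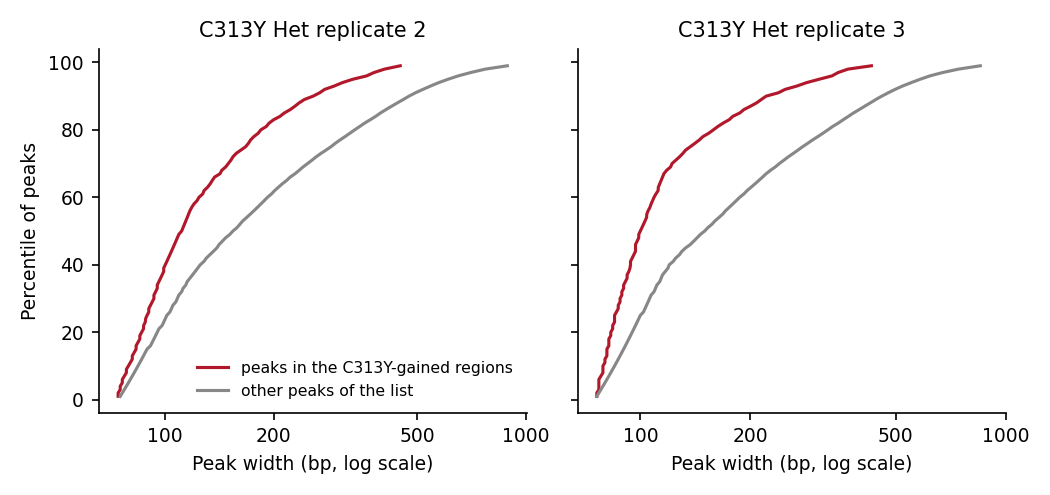
Percentile of peaks (y axis) by peak width in bp (x axis, log scale) for the 2 C313Y heterozygote lists, with peaks in the gained regions in red and all other peaks of the list in grey. In both lists the gained regions lie to the left, with medians of 111 and 100 bp against 154 and 150 bp.

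By the narrower of the 2 heterozygote peaks, the widest member lay inside Mcu, the pore of the mitochondrial calcium uniporter (chr10:59589559-59590117, 543 and 512 bp). It was called in both knockout libraries, with folds of 4.29 and 3.56, and in both C442G libraries, with 3.86 and 3.20. The next was inside Exoc3l4 (chr12:111429658-111430372, 550 and 477 bp). A member inside Myo3b, an unconventional myosin of sensory hair cells (chr2:70289852-70290356, 441 and 476 bp), had folds of 4.73 and 4.67 in the knockout and 3.25 and 4.07 in C442G. These intragenic members were thus shared with other mutants. Others of the widest were not. The member inside Elapor1 (chr3:108501713-108502172, 365 and 355 bp) had no peak in any other library, though a region with a wild-type peak began 80 bp away. One at 14111 bp from Gm2244 (chr14:19518704-19519589, 830 and 473 bp) was likewise confined to the 2 heterozygotes. It lies in a block of chromosome 14 that held 12 members within its first 20 Mb, where near-identical gene copies are known and read placement is uncertain. The share of all regions in that block is not given here. Further wide members lay near Hs6st3, a heparan sulfate sulfotransferase (359 and 412 bp), near Abl2, a tyrosine kinase (419 and 350 bp), near Kctd3 (341 and 308 bp) and near the homeobox gene En1 (348 and 331 bp). At Hs6st3 and En1 the value of replicate 2 is the summed width of separate peaks in the region, so no single peak there was that wide.

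Near gene ends the widest members were at Arhgdig (270 and 268 bp), Pdlim4 as above, and Hmcn2, an extracellular matrix gene (243 and 329 bp). At Tbx15, a T-box transcription factor of skeletal and skin development, a member across the gene end (chr3:99240031-99240425) was 395 and 238 bp wide and closed in all 10 other libraries. Cdk19, a kinase of the Mediator complex, had the same pattern with 216 and 342 bp. Tbx15 and Cdk19 were the only 2 of the 10 widest members near gene ends with no peak in the knockout or C442G. At Chga, which encodes chromogranin A of neuroendocrine granules, a member 526 bp upstream of the start (150 and 281 bp) had a fold of 3.64 in 1 knockout library and 3.26 and 3.77 in C442G. The others were at Zfp788 (236 and 208 bp), a zinc finger gene with close relatives where read placement is uncertain, and at the ciliary gene Cep162 (190 and 262 bp). The mitochondrial genes Adck1 (161 and 175 bp) and Rmnd1 (273 and 138 bp) completed the 10.

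Whether the regions gained with C313Y were also open in other Aire mutants was asked of the 4 knockout and C442G libraries. The rule set no condition on peaks in them, but their peaks took part in the merging, so the choice was not fully independent of them. They joined the heterozygote peaks of 19 members, and could join a heterozygote peak to a wild-type peak and so exclude it. Of the 954 regions, 375 (39.3%) had no peak in any of these 4, 183 had one in 1, 139 in 2, 144 in 3 and 113 (11.8%) in all 4. Knockout replicates 1 and 2 had a peak in 225 (23.6%) and 302 (31.7%), and C442G replicates 1 and 2 in 420 (44.0%) and 398 (41.7%). The knockout averaged 27.6% ± 5.71 and C442G 42.9% ± 1.63 (SD, n = 2 each). The knockout libraries were both below the C442G libraries, with a mean difference of -15.3 percentage points (exact two-sided permutation test, p = 0.333, the smallest that 2 libraries against 2 allow). The order was also that of list length: over all regions outside the members the 2 knockout libraries had a peak in 36.7% and 40.6%, and the 2 C442G libraries in 53.0% and 49.8%. At regions with peaks in both C313Y heterozygotes and a wild type the knockout had 86.5% and 89.8% and C442G 94.9% and 94.6%. With regions taken as the overlap of the 2 heterozygote peaks, which needs no merging with other lists, the difference was -15.7 percentage points. With every list cut to its 33502 widest peaks the difference turned to 4.10 percentage points, higher in the knockout. Of the members 195 were called in a C442G library and in no knockout library, and 56 in a knockout library and in no C442G library. The C442G lists were longer, with 120031 and 112808 peaks against 84037 and 93198 in the knockout. Like counts over all regions are not given here, so these numbers and the counts by number of libraries above have no background.

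A mirror set shows the level such presence takes in regions picked in the opposite direction. It held 458 regions (0.206% of all) with a peak in both C313Y-set wild types, in neither C313Y heterozygote and in no other wild type, so both sets share the exclusion of the other 4 wild types. It was added after seeing the data, because the mirror set planned, with none of the 6 mutant libraries (381 regions, 0.171% of all), is closed in the knockout and C442G by construction. The members had a peak in knockout replicates 1 and 2 in 23.6% and 31.7%, and the mirror regions in 7.42% and 9.39%. In C442G replicates 1 and 2 the members had 44.0% and 41.7% and the mirror regions 22.3% and 21.8%. All 4 libraries were higher for the members. No wild type is left to set against them, since all 6 were used to choose the members, and the part that signal just under threshold plays was not tested.

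**Figure D3:**
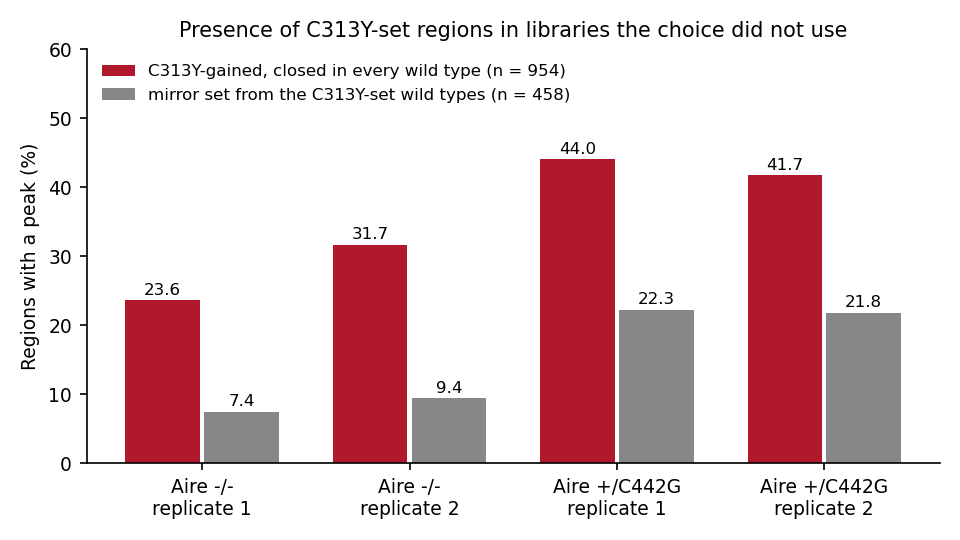
Share of regions with a peak (percent, y axis) in each Aire -/- and Aire +/C442G library (x axis), for the 954 C313Y-gained regions (red) and the 458 mirror regions (grey). The red bars, 23.6% to 44.0%, stand above the grey bars of the same library, 7.42% to 22.3%.

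A reading that all 8 other libraries could take part in was had by choosing regions by presence in the 4 libraries of the C313Y set alone. The regions themselves were still merged over all 12 libraries. These gave 5174 gained regions (2.32% of all), which hold the 954, and 1600 lost regions (0.719%), and both were read in the other 8 libraries. Gained regions were called in 62.7% and 71.6% in the knockout, against 13.9% and 16.3% in its wild types. In C442G they were called in 84.7% and 83.7%, against 70.3% and 72.4% in its wild types. List lengths differed, with 84037 and 93198 peaks in the knockout and 33933 and 33502 in its wild types. Over all merged regions the knockout had a peak in 36.7% and 40.5%, and its wild types in 14.8% and 14.6%. For C442G these shares were 53.0% and 49.7%, and for its wild types 40.5% and 40.6%. Lost regions were called in 35.2% and 39.4% of cases in the knockout against 6.81% and 6.31% in its wild types, and in 66.5% and 64.9% in C442G against 59.6% and 60.4%. In all 8 libraries, wild types included, gained regions were called more often than lost ones. Of the 5174, 18.4% are the regions described here, and the others had a peak in a wild type of another set.

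The log2 ratio of the gained to the lost share averaged 0.85 ± 0.02 in the knockout and 1.20 ± 0.24 in its wild types (SD, n = 2 each). In C442G it was 0.36 ± 0.01, and 0.25 ± 0.02 in its wild types. Over both sets mutants differed from wild types by -0.12 (exact two-sided permutation test within sets, p = 0.444, smallest possible 0.0556), which did not pass. The sign depended on the choices made. On the scale of log2 odds ratios, added after seeing the data because shares near 100% compress a ratio, the knockout had 1.63 and 1.96 against 1.15 and 1.53 in its wild types, and C442G 1.48 and 1.47 against 0.68 and 0.78. The difference was then 0.60, at the smallest p the design allows (exact permutation p = 0.0556). Leaving out C313Y heterozygote replicate 2 or 3 also turned the log2 ratio, to 0.46 and 0.28. Leaving out replicate 1 or 2 of the C313Y-set wild types made it -0.40 and -0.62. Each of these 4 values had the smallest p the design allows (exact permutation p = 0.0556), so that p was reached in both directions.

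**Figure D4:**
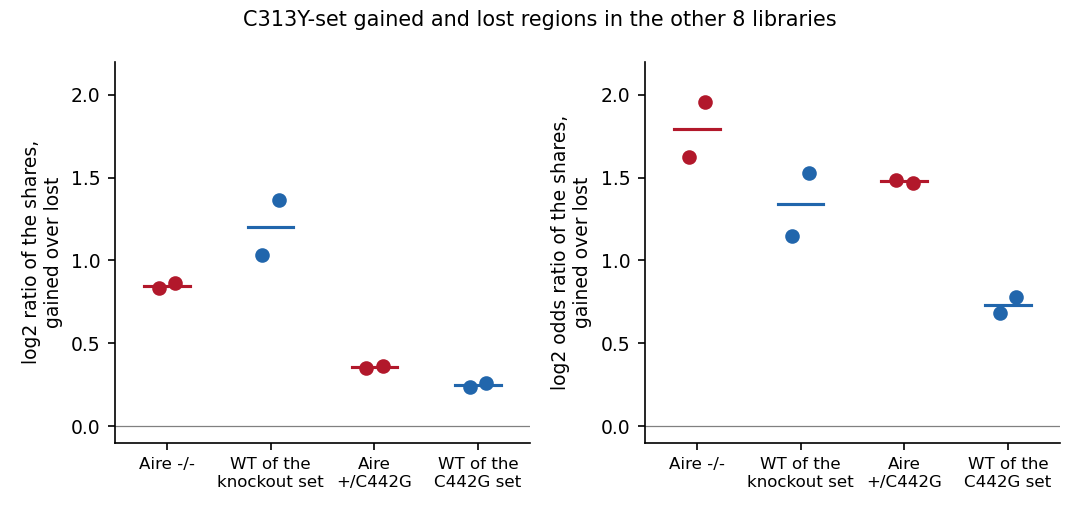
The log2 ratio (left) and log2 odds ratio (right) of the share of gained over the share of lost C313Y-set regions with a peak (y axes), with 1 point per library and a line at the mean, for the knockout, its wild types, C442G and its wild types (x axis). On the left the knockout lies below its wild types, and on the right both mutants lie above theirs.

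In the knockout and C442G lists the peaks at the gained regions were weaker than at regions open in wild types too. The median fold, as the authors' caller gave it, was 3.64 and 3.63 in the knockout libraries and 3.74 and 3.92 in the C442G libraries. At regions called in both C313Y heterozygotes and a wild type the medians were 5.47 and 5.80 in the knockout and 6.56 and 6.93 in C442G. At other regions closed in every wild type they were 3.21 and 3.25 in the knockout and 3.32 and 3.64 in C442G. A −log10 q of at least 3 was reached by 12.9% and 25.2% of member peaks in the knockout and by 32.6% and 38.9% in C442G, against 74.0% to 90.9% at regions shared with a wild type. At other regions closed in every wild type it was reached by 5.61% and 7.45% in the knockout and by 11.7% and 22.1% in C442G.

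**Figure D5:**
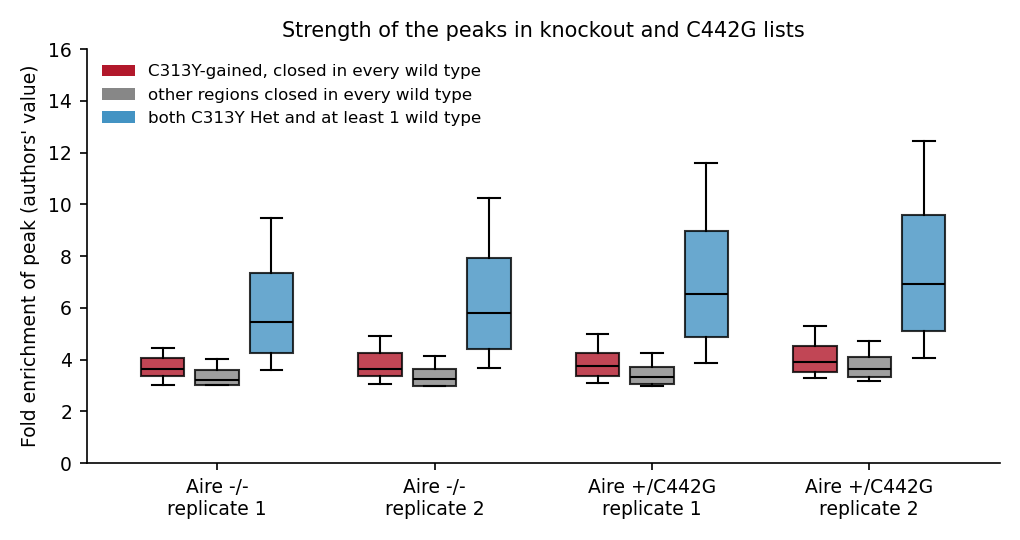
Fold enrichment of peaks as given by the authors (y axis) in each Aire -/- and Aire +/C442G list (x axis), for peaks at the C313Y-gained regions (red), at other regions closed in every wild type (grey) and at regions called in both C313Y heterozygotes and a wild type (blue). Boxes span the quartiles with the median as a line, and whiskers reach the 10th and 90th percentiles. The red medians, 3.63 to 3.92, lie just above the grey and below the blue.

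A few members were strong in all 4 of these libraries. The strongest by its lowest fold lay 74592 bp from Elavl4, a neuronal RNA-binding protein gene (chr4:110129056-110129145). Its folds were 5.80 and 6.48 in the knockout and 6.48 and 9.26 in C442G, while its peaks in the C313Y heterozygotes were only 78 and 76 bp wide. Inside Cfap61, a gene of motile cilia, folds were 5.31 and 5.79 in the knockout and 5.57 and 5.45 in C442G, with 240 and 157 bp in the C313Y heterozygotes. Members inside Med23, a Mediator subunit, and inside Mthfs, a folate enzyme, reached 5.56 and 6.47 and then 4.91 and 6.17 in the knockout. The remaining strong ones were near Ift22, of intraflagellar transport, and inside Ahctf1, which encodes a nuclear pore assembly factor. None of these 6 lay within 1 kb of a gene end.

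The widest members without a peak in the knockout and C442G, besides those at Gm2244 and Elapor1, were all between genes. They lay near Rsph3a, a radial spoke gene of cilia (299 and 578 bp), Rasd2, a small GTPase of the striatum (366 and 286 bp), Slf2, of DNA repair (282 and 278 bp), and Mobp, a myelin gene (267 and 301 bp). Members without a peak in the 4 libraries lay between genes in 54.9% of cases, those with a peak in 1 to 3 of them in 38.2%, and those with a peak in all 4 in 46.9%, so there was no trend with the number of libraries. Their narrower heterozygote peak had a median of 93 bp, against 94 bp, so width in the C313Y lists did not separate them.

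The 954 regions named 900 nearest genes, and 5 genes had 3 members each. At Clmp, an adhesion molecule, 1 member 26329 bp outside the gene (chr9:40655378-40655794, 265 and 346 bp) was called in all 4 other mutant libraries, with folds of 6.51 and 4.69 in the knockout and 3.65 and 3.95 in C442G. The Clmp members inside the gene were called in 1 and 0 of the 4. Beyond En1, a homeobox factor, the members lay 6241, 77977 and 81402 bp from the gene and were called in 3, 2 and 1 of the 4. Pde4d, a cyclic AMP phosphodiesterase, and Tmcc3 held all 3 within the gene, and at 1 of those in Pde4d the 2 heterozygote peaks did not overlap. Xylt1, which starts proteoglycan chains, had 1 inside and 2 at 79668 and 165809 bp from it. Neighbouring members were under 10 kb apart in 13 cases, and the median gap was 1.29 Mb. The same count for other regions is not given here, so clustering was not tested.

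Lists of thymic interest took 0 to 2 members each, counts too small to set apart from their shares of all regions. Ccl21a, a chemokine that draws thymocytes into the medulla, was nearest to 2 members, 6338 and 31043 bp away (104 and 248 bp, then 109 and 116 bp), both closed in all 10 other libraries. Ccl21a has near-identical copies on chromosome 4, so read placement is uncertain there. It was 1 of 14 genes of mTEC identity and presentation, a list that took 0.210% of members and 0.0966% of all regions. Of 18 Aire-induced tissue antigens Chrna1, a muscle acetylcholine receptor subunit, was nearest to 1 member (0.105%, against 0.0494% of all regions), at 15742 bp (74 and 108 bp). The 2 heterozygote peaks of the Chrna1 member did not overlap each other, and it was no member when their overlap, 50% coverage, a −log10 q of at least 3 or the widest peaks were required, or without C442G replicate 2. It had a fold of 5.50 in knockout replicate 2 and 4.96 and 3.80 in C442G. Of 20 NF-kB signalling genes Traf3, a negative regulator of the pathway, held 1 inside (96 and 147 bp; the list took 0.105%, against 0.143% of all regions). No member was nearest to the 9 genes of Fezf2 and its antigens (0.0247% of all regions), to 10 of the corneocyte-like stage (0.0377%), 11 of tuft cells (0.0768%), 18 lineage factors of mimetic cells (0.137%) or 10 constitutive genes (0.0427%). With 954 members, a count of 0 for lists of this size is near the background.

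Neuronal and channel genes took shares near those of all regions. Axon guidance and neuronal adhesion genes were nearest to 8 members (0.839%, against 1.20% of all regions), 1 each at 8 of 51 genes, among them Cntnap2, Unc5b and Slit3. Unc5b, a netrin receptor, had the widest of these by its narrower peak (243 and 214 bp). Potassium and calcium channel genes took 6 (0.629% against 0.577%), at 6 of 36 genes. The one inside Cacna1e, a neuronal calcium channel, was called in all 4 other mutant libraries, while that inside the potassium channel gene Kcnn3 was called in none. Synaptic receptor genes took 2 (0.210% against 0.272%), at Grin1 and Chrna1, and Hox and forkhead genes 2 (0.210% against 0.266%), at Foxp1 and Foxf1.

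For markers of other cells, members were nearest to 2 of 8 endothelial genes, Pecam1 and Kdr, 2 of 7 fibroblast and mural genes, Pdgfrb and Col1a1, 1 of 14 T cell genes, Bcl11b, 1 of 10 dendritic cell and macrophage genes, Flt3, and 0 of 6 B cell genes. The endothelial list took 0.210% of members, against 0.0800% of all regions, and the fibroblast and mural list 0.210% against 0.0544%. The T cell list took 0.105% against 0.0575%, the dendritic cell and macrophage list 0.105% against 0.0391%, and the B cell list 0 members against 0.0274%. The member inside Pecam1, an adhesion molecule of endothelium (chr11:106713160-106713532), was the widest of these with 373 and 287 bp. In the knockout it was closed, and in C442G it was called in replicate 2 with a fold of 3.90. At Pdgfrb, a growth factor receptor of mural cells, a member lay across the gene end (chromosome 18, 61045038 to 61045383, 112 and 76 bp), called also in 1 knockout and 1 C442G library. The 2 heterozygote peaks of the Pdgfrb member did not overlap each other, and it was lost under the same 5 settings as that at Chrna1. Flt3 and Col1a1 held theirs inside the gene, and Kdr and Bcl11b had theirs 82251 and 199003 bp away. These single members give no measure of the number of other cells in the sort.

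Among large families, zinc finger genes were nearest to 18 members (1.89%, against 1.47% of all regions), vomeronasal receptors to 4 (0.419% against 0.188%), cytochromes P450 to 4 (0.419% against 0.223%), serpins to 4 (0.419% against 0.175%), olfactory receptors to 3 (0.314% against 0.356%), collagens to 3 (0.314% against 0.351%) and keratins to 2 (0.210% against 0.110%). Each of these is a count of few regions. Vmn2r66 held 1 inside the gene that was called in all 4 other mutant libraries, and Krt12, a keratin of the corneal epithelium, had 1 at 2187 bp, called in 3 of them (75 and 85 bp in the C313Y heterozygotes). Krt2, a keratin of the upper epidermis, had 1 at 7502 bp called in none. Members of these families with close relatives in the genome share sequence, and the placement of their reads could not be examined.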

How the data were processed

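Chromatin accessibility of sorted mTEChi was measured by ATAC-seq in 12 libraries. MACS2, Bowtie2, cutadapt and Picard and the build mm10 are named in the submitters' processing notes. How reads were shifted or duplicates handled is not stated in the sources used. Peaks were called per library. The authors deposited positions only for the 4 lists of the C313Y set, and for the other 8 lists also a score and −log10 p (neither used), −log10 q and a fold enrichment per peak. Depth is unknown, so peak numbers are its only trace and no counting interval is given.

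Peaks on chromosomes 1 to 19 were merged where they overlapped by at least 1 bp (Python 3.11.15, pandas 2.3.3). A library had a region when one of its peaks lay in it. Genes were the 20661 protein-coding genes of RefSeq (GRCm38.p6, the same coordinates as mm10), and 16456 of them had an annotated start in the promoter table. Groups came from the titles. Tests were exact permutations over libraries, and the counting was tested on simulated lists.

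The members and gene lists were chosen with earlier results of these data known. Genes named were those nearest to: the 10 widest members, the 10 widest near gene ends, the 6 strongest in all 4 knockout and C442G libraries, the 6 widest in none, the genes with the most members (5 tied for the 3 planned), Aire, and up to 3 per list. Members on the shown promoters (Pdlim4, Slc17a7, Hspb9, Muc1 and others), at Icosl and single values of further list genes were chosen after their values were seen. The mirror set was also added then. Alternatives were other overlap rules, equal list lengths, a −log10 q minimum of 3, fewer wild types, chromosome X, other gene windows, each library left out and a replicate block.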

Additional observations from a re-analysis of the deposited data

Results flagged for a closer look

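The rule did not use sequences outside chromosomes 1 to 19. On chromosome X 32 of 5776 regions (0.554%) had a peak in both C313Y heterozygotes and in no wild type. The mirror set had 22 regions there. On chromosomes 1 to 19 the members were 954 (0.429% of regions) and the mirror set 458, so X did not stand out against its mirror. On sequences not placed on a chromosome 5 of 436 regions (1.15%) were gained in this way, against 4 in the mirror set. On chromosome Y the counts were 1 of 316 regions (0.316%) and 1.

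The log2 ratio of gained to lost C313Y-set regions moved in opposite directions in the 2 other sets. In the knockout both libraries lay below both of their wild types, a difference of -0.35. In C442G both lay above both of theirs, a difference of 0.11. The difference between the sets was not tested, and on the log2 odds scale both sets moved the same way (0.45 and 0.74).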

How the results depend on the processing

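The number of members was 954 by the rule and depended on how presence was defined. It was 547 when a peak had to cover at least 50% of the merged region in the mutant libraries (any overlap still counting in wild types), 634 with the 33502 widest peaks of each list, 2393 with a −log10 q of at least 3 in the 8 lists that give it, and 5174 when only the 2 wild types of the C313Y set had to lack a peak. Leaving out 1 library in turn gave 955 to 9291, the high values coming without a C313Y heterozygote, when 1 library alone decides (4696 without replicate 2 and 9291 without replicate 3). Without replicate 1 or 2 of the C313Y-set wild types it was 1445 and 1298. Without replicate 1 or 2 of the C442G-set wild types it was 1366 and 1459. The overlap of the 2 heterozygote peaks, a margin of 200 bp around wild-type peaks and chromosome X left it within 1.5 times (1112, 926 and 986). The difference in presence between knockout and C442G, -15.3 percentage points, ran from -19.3 to -8.51 with 1 library left out and turned to 4.10 with the widest peaks. The log2 ratio of gained to lost regions was -0.12. It turned to 0.13 when 50% coverage was asked of every library, wild types included. With the widest peaks it was 0.67, and as a log2 odds ratio 0.60. With 1 library left out it ran from -0.62 to 0.46. The cause was not tested. The share near gene ends was 5.56% and 13.4% with windows of 500 and 2500 bp. Of 82 regions named by rule, 46 were members with 50% coverage in the mutant libraries. With the widest peaks 31 were, and at least 79 under every other setting.

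With a replicate block the differences were -15.3 and -0.12 as before, with exact permutation p = 0.5 and p = 0.625. The labels do not say that equal numbers share an animal or a day, and deviations of same-numbered libraries correlated by 0.038, 0.00453 and 0.00506. The C313Y set could not be blocked, since its groups share 1 number. Only 2 libraries per group and unknown depth limit each comparison.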
